A study of Mus musculus with 12 samples.

Results

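A set of 3515 genomic regions was occupied by MyoD, by NeuroD2 and by 3 chimeric proteins built from them, in mouse P19 embryonal carcinoma cells. The members were found by pooling the sites of the 5 deposited lists, joining sites that shared at least 1 base on a chromosome, and keeping each joined region that contained a site of every list. They were 3515 of 60136 joined regions, a share of 5.85%. Binding had been mapped by chromatin immunoprecipitation followed by sequencing (ChIP-seq) in 12 libraries, 2 for each of 6 groups. In the chimera group, P19 cells were transduced with MD(ND2bHLH), which is MyoD carrying the basic helix-loop-helix (bHLH) domain of NeuroD2 in place of its own. The WC group received MD(ND2bHLH)WC and the WCS group MD(ND2bHLH)WCS, mutants of that chimera whose letters the labels do not spell out. The other transduced groups received MyoD and NeuroD2, and the control cells were not transduced. All transduced cells carry an introduced gene in a cell line that is neither muscle nor neuron, and they had been moved to a neuronal medium 48 h after infection. MyoD antibodies 6196 and 6975 precipitated the chimera, WC, WCS and MyoD, NeuroD2 antibodies 1165 and 1240 precipitated NeuroD2, and antibodies 6975 and 1240 were used on the untransduced cells.

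MyoD is the bHLH factor that drives skeletal muscle differentiation, and NeuroD2 is a bHLH factor of differentiating neurons. Such factors bind DNA as dimers with widely expressed E proteins, and the basic part of the domain reads the E-box, CANNTG, whose central bases differ in how well they suit each factor. In mouse cells both factors are known to use E-boxes with a GC centre, whereas a GA centre favours NeuroD2 and a GG centre favours MyoD. No genome or annotation of the build of the lists, mm9, was used here. The regions are therefore given by position only, and neither their E-boxes nor their genes were examined.

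Each transduced group has 1 list, which the labels of both of its libraries share, so no spread between cultures can be given and no difference between groups was tested. The authors gave each site 1 value, here taken to be the −log10 of its p-value: finite ones run from 5.002 to 312.2, and 59 are infinite. It was used as a rank percentile within its own list, where 100 is the highest. Named regions are printed with their values, which are not known to share a scale between lists. Read depth is unknown. The regions were chosen by their presence in all 5 lists, so their values in the same lists are a description and support nothing on their own. Intervals in parentheses are exact 95% Clopper-Pearson intervals, which cover counting error only. No list of sites from the untransduced libraries was used here, so regions that would appear without any introduced protein could not be marked.

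The common regions took up a small part of each list, and a larger part among the sites of high value. They held 3575 of 14375 chimera sites, 3665 of 27045 WC sites, 3668 of 22462 WCS sites, 3647 of 24935 MyoD sites and 3679 of 31458 NeuroD2 sites. As shares of the lists these were 24.9% (24.2 to 25.6%) for the chimera, 13.6% (13.1 to 13.97%) for WC, 16.3% (15.8 to 16.8%) for WCS, 14.6% (14.2 to 15.1%) for MyoD and 11.7% (11.3 to 12.1%) for NeuroD2. The order of these shares follows the lengths of the lists, the chimera's being the shortest. When every list was shortened to 14375 sites by value, 1894 regions remained common to all and the shares lay between 13.5% and 13.6%.

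Within every list the share of sites that fell in a common region grew with the value of the site. In the chimera list it was 10.4% in decile 1, the lowest values, 17.1% in decile 5 and 58.8% in decile 10. The WC list had 2.16% in decile 1, 7.32% in decile 5 and 42.5% in decile 10. For WCS the shares in these deciles were 3.96%, 11.3% and 43.6%, and for MyoD 6.51%, 9.35% and 39.6%. NeuroD2 had the lowest share at the top, 28.9% in decile 10, after 3.50% in decile 1 and 8.71% in decile 5. The order of the lists in a decile depends on their lengths too. In decile 10, 844 of 1435 chimera sites lay in common regions, and 912 of 3151 NeuroD2 sites. Of the strongest NeuroD2 sites, the 34 with an infinite value, 3 lay in a common region, against 4 of 8 for WC, 1 of 6 for WCS and 2 of 11 for MyoD, while the chimera list had none at infinity.

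**Figure D1:**
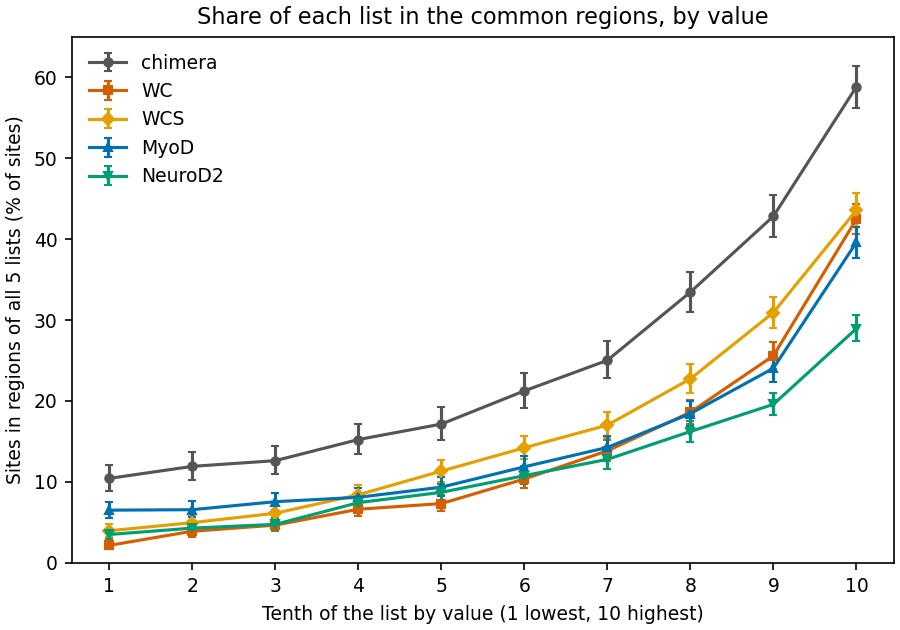
Share of the sites of each list that lie in regions held by all 5 lists (vertical axis, percent of sites) against the decile of the site's value within its list (horizontal axis, 1 lowest), with exact 95% intervals for counting error as bars. The chimera curve lies above the others and reaches 58.8% in decile 10, and the NeuroD2 curve ends lowest, at 28.9%. The chimera list is the shortest and the NeuroD2 list the longest, so the order of the curves depends on list length too.

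The common regions ranked high in each list but were not confined to the top. Their median percentile was 74.1 in the chimera list, 81.1 in WC, 77.9 in WCS, 76.1 in MyoD and 75.04 in NeuroD2. The other regions of these lists had medians of 43.5, 45.3, 44.96, 46.3 and 47.1 in the same order. The sites of the common regions had median values of 15.6 against 8.51 elsewhere in the chimera list, 24.4 against 9.74 in WC, 20.2 against 9.12 in WCS, 20.2 against 9.97 in MyoD and 19.6 against 9.84 in NeuroD2. They were also wider, with median widths of 503 bp against 410 bp for the chimera, 447 against 337 bp for WC, 414 against 314 bp for WCS, 411 against 351 bp for MyoD and 415 against 333 bp for NeuroD2. A wide site meets others more readily, so width and presence in several lists cannot be told apart here.

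Of the 3515 regions, 843 or 24.0% were in the top 10% of the chimera list, against a background of 10.0% of that list's regions. In the top 10% of WC were 1141 or 32.5% (background 10.0%). The counts were 973 or 27.7% for WCS (background 10.1%), 982 or 27.9% for MyoD (10.0%) and 910 or 25.9% for NeuroD2 (10.1%). Common regions fell below a list's median less often than all regions of that list, though some did in each. They numbered 935 or 26.6% in the chimera list (background 49.9%) and 569 or 16.2% in WC (49.8%). The counts were 683 or 19.4% in WCS (49.6%), 869 or 24.7% in MyoD (49.8%) and 788 or 22.4% in NeuroD2 (49.7%).

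The rank of a region went with the number of lists that held it, least steadily for MyoD. Regions held by 1, 2, 3, 4 and 5 lists had median percentiles in the WCS list of 15.8, 28.0, 51.2, 67.7 and 77.9. The WC medians followed the same course, at 21.8, 31.1, 54.4, 70.8 and 81.1, and so did those of NeuroD2, at 30.6, 39.6, 63.4, 70.1 and 75.04. The chimera medians were 29.2, 41.3, 49.1, 50.8 and 74.1, so most of the climb lay in the first and the last step. In the MyoD list the medians were 39.4, 60.5, 61.8, 57.6 and 76.1, with no increase between 2 and 4 lists. The MyoD median at 4 lists pools unlike regions. Of these 2071 regions, 1145 lacked the chimera and had a median of 46.3. Those that lacked WC, WCS or NeuroD2 had medians of 72.9, 69.8 and 69.6.

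**Figure D2:**
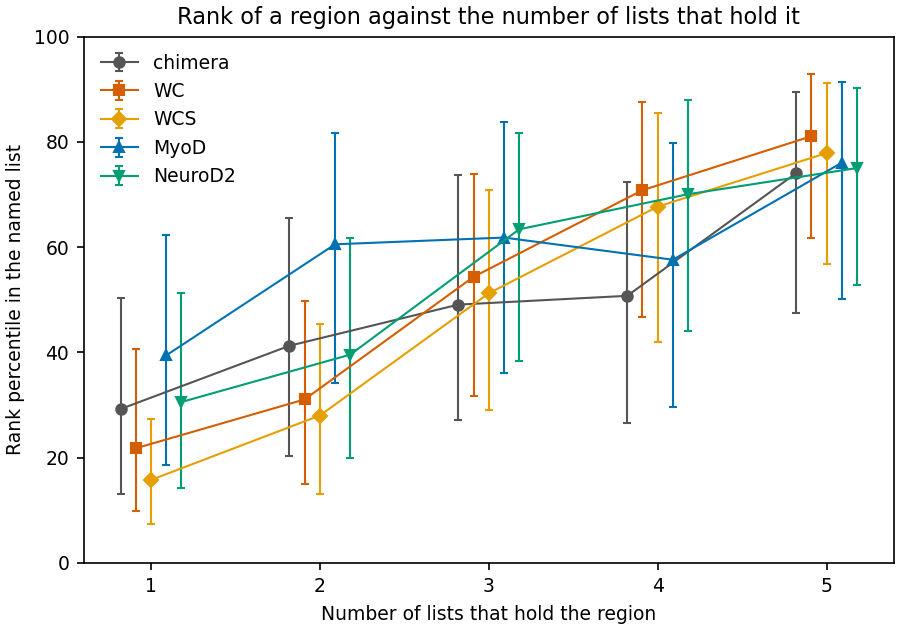
Median rank percentile of regions in each list (vertical axis) against the number of lists that hold the region (horizontal axis), with bars from the lower to the upper quartile over regions. All 5 medians are highest for regions held by 5 lists, between 74.1 and 81.1, and the MyoD median is 57.6 at 4 lists and 61.8 at 3.

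Although all 5 proteins held these regions, they did not rank them alike. Over the 3515 regions, MyoD ranks were nearly unrelated to NeuroD2 ranks, with a Spearman rho of 0.07, to WCS ranks, with 0.08, and to WC ranks, with 0.12. NeuroD2 ranks went with those of both mutants, at 0.67 for WC and 0.68 for WCS, and the mutants resembled each other most, at 0.79. The chimera was tied to every list, at 0.51 with WC, 0.41 with MyoD, 0.39 with WCS and 0.29 with NeuroD2. These are correlations across regions that share the 2 libraries and the depth of each list, and no p-value belongs to them. In regions that a pair of lists shared without all 5, rho was lower for all 10 pairs. It was 0.73 for WC and WCS over 14707 regions, 0.19 for the chimera and WC over 5196, 0.36 for the chimera and MyoD over 4680, and −0.04 for MyoD and NeuroD2 over 2840. These differences in rho were not tested.

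The pattern of likeness stood when the width of the region was held constant, where the partial rho was 0.02 for MyoD and NeuroD2, 0.78 for WC and WCS, 0.47 for the chimera and WC and 0.38 for the chimera and MyoD. Ranks were only loosely tied to that width, with a rho of 0.17 for MyoD to 0.30 for the chimera. They were tied more closely to the width of the list's own site, which was not held constant. With lists of equal length rho was 0.08 for MyoD and NeuroD2, 0.77 for WC and WCS, 0.41 for the chimera and MyoD and 0.25 for the chimera and NeuroD2 over 1894 regions. The MyoD and chimera lists hold no sites of chromosome X, unlike the other 3 lists, and a shared batch or filter cannot be told apart from the protein. WC and WCS were precipitated with the antibodies used for the chimera and MyoD, and NeuroD2 with others, and the part of the antibody in these values was not tested.

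**Figure D3:**
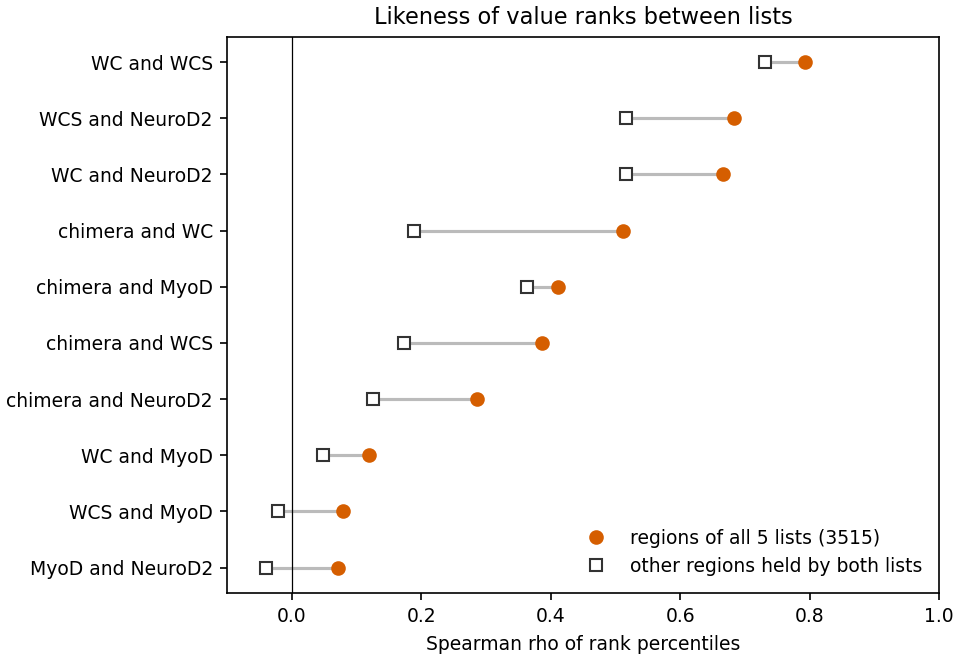
Spearman rho of rank percentiles (horizontal axis) for the 10 pairs of lists (vertical axis), over the 3515 regions of all 5 lists (filled circles) and over other regions held by both lists of the pair (open squares). Pairs of MyoD with NeuroD2, WCS or WC lie between 0.07 and 0.12 in the common regions, and WC with WCS lies at 0.79.

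The chimera's ranks followed both parents at once, and those of the mutants followed NeuroD2 almost alone. With NeuroD2 ranks held constant, the chimera had a partial rho with MyoD of 0.41, WC of 0.10 and WCS of 0.04. With MyoD ranks held constant, the partial rho with NeuroD2 was 0.28 in the chimera list, 0.66 in WC and 0.68 in WCS. The regions were then divided into quintiles of 703 by MyoD rank, lowest first. Median chimera percentiles were 56.4, 63.1, 68.0, 78.5 and 90.9 from quintile 1 to 5. For WC the medians were 79.4, 78.7, 79.9, 82.1 and 86.5, and for WCS 77.3, 76.03, 76.3, 78.4 and 82.6, so the mutants changed little except at the highest MyoD ranks. Along quintiles of NeuroD2 rank, the WC medians were 54.4, 67.8, 79.1, 87.6 and 96.3 and the WCS medians 51.2, 65.5, 77.5, 86.4 and 95.9. The chimera medians along NeuroD2 rank were 62.4, 66.1, 72.2, 77.9 and 87.04, and the MyoD medians stayed between 72.04 and 80.4.

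Regions at opposite corners of the parents' ranks showed the same division. In the 109 regions of highest MyoD and lowest NeuroD2 rank, the chimera had a median percentile of 86.2, against 60.4 for WC and 52.5 for WCS. In the 139 regions of lowest MyoD and highest NeuroD2 rank, the chimera had a median of 72.8, WC of 94.9 and WCS of 94.98. Where both parents ranked highest, in 187 regions, all 3 chimeric proteins did too, with medians of 94.4, 97.4 and 96.9 for the chimera, WC and WCS. Where both parents ranked lowest, in 139 regions, the medians were 48.1, 53.7 and 45.97.

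**Figure D4:**
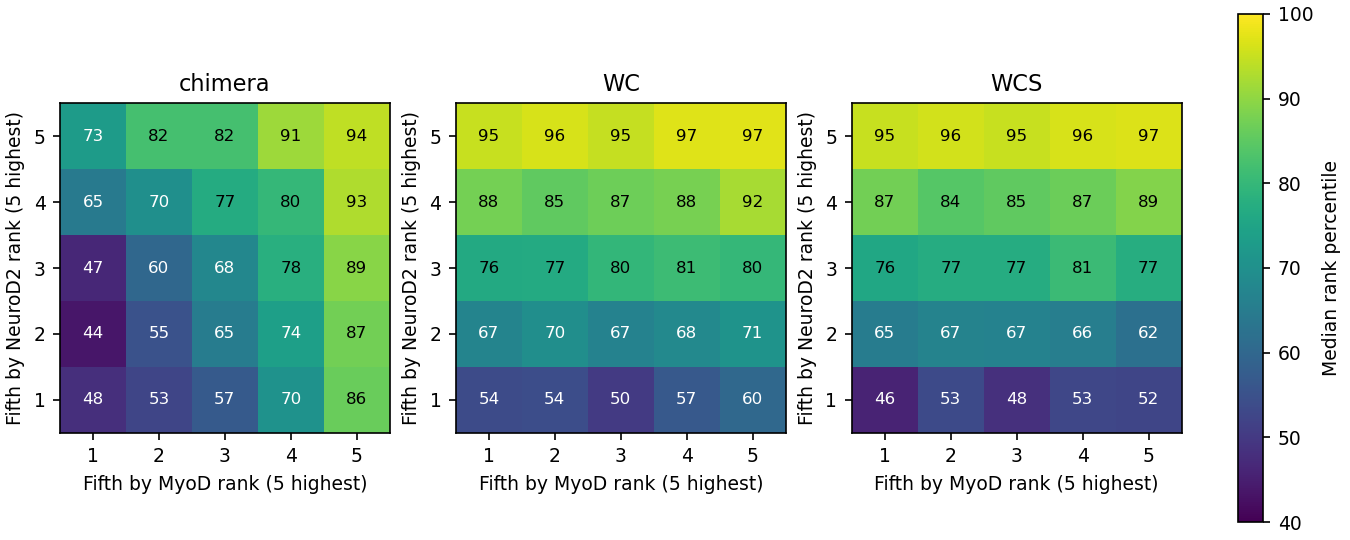
Median rank percentile (colour and printed value) of the chimera, WC and WCS over the 3515 regions, divided into quintiles by MyoD rank (horizontal axis) and by NeuroD2 rank (vertical axis). Chimera medians run from 43.5, at the lowest MyoD rank and NeuroD2 quintile 2, to 94.4 at the highest ranks of both, and the panels of WC and WCS brighten mainly upward.

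Single regions differed widely between proteins. The gap between a region's highest and lowest percentile had a median of 43.7 points, with quartiles of 25.5 and 63.0. MyoD was the list most often at an extreme: it gave the highest percentile in 1044 regions, 29.7%, and the lowest in 1018, 29.0%. The chimera gave the highest in 540 and the lowest in 921, WC 608 and 305, WCS 681 and 495, and NeuroD2 642 and 776. Only 154 regions, 4.38%, lay above percentile 90 in all 5 lists, and 575 lay above 75. All 5 percentiles exceeded 50 in 1469 regions, 41.8%, and fell below 50 in 37. In 136 regions WC, WCS and NeuroD2 all stood above 90 and MyoD below 50, and 44 regions had MyoD above 90 and these 3 lists below 50. These counts start from unequal shares. Taken singly, WC, WCS and NeuroD2 placed 25.9 to 32.5% of the common regions above 90 and 16.2 to 22.4% below 50. MyoD placed 27.9% above 90 and 24.7% below 50.

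The regions with the best lowest percentile were strong in every list. The region at chr6:116620058-116621790 (mm9, as are all positions here) had values of 117.8 in the chimera list, infinite in WC and WCS, 188.2 in MyoD and infinite in NeuroD2. All 5 lists agreed there on a stretch of 1362 bp, the longest of all members. On chromosome 12, the region from 112902474 to 112903066 had values of 140.1 for the chimera, 174.2 for WC, 149.5 for WCS, 219.9 for MyoD and 144.9 for NeuroD2. This is the most even of the 6, and the outermost centres of its sites were 27 bp apart. The region at chr1:172585365-172586481 had 117.1, infinite, 290.7, 125.3 and infinite in the same order of lists. A further pair on chromosome 1 was chr1:93310555-93311292 and chr1:135789479-135790319. That at chr1:93310555-93311292 had values of 99.2 for the chimera, 111.1 for WC, 129.9 for WCS, 237.3 for MyoD and 163.1 for NeuroD2, so MyoD had the highest. The values at chr1:135789479-135790319 were 83.2 for the chimera, 119.1 for WC, 150.9 for WCS, 116.9 for MyoD and 117.1 for NeuroD2. The sixth, at chr3:144306274-144307042, had 71.1 for the chimera, 172.2 for WC, 209.5 for WCS, 151.4 for MyoD and 283.0 for NeuroD2.

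At the other end, some regions were held by every list and strong in none. At chr10:39966491-39967088 the values were 6.44 for the chimera, 5.36 for WC, 5.86 for WCS, 7.23 for MyoD and 6.49 for NeuroD2, all near the lowest value that the lists contain. At chr17:48237804-48238301 they lay between 5.22 for the chimera and 7.23 for NeuroD2, and at chr4:41618795-41619235 between 5.43 for WCS and 7.53 for MyoD.

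Some regions ranked near the bottom of 1 list and high in the other 4, most sharply for MyoD. The region at chr13:113824274-113824939 had a value of 5.30 in the MyoD list, at percentile 3.38, while it had 166.0 in the chimera list, 169.5 in WC, 86.9 in WCS and 138.0 in NeuroD2. Every list but MyoD's placed it above percentile 98. The converse for NeuroD2 lay at chr12:3843101-3843781, with 5.64 in the NeuroD2 list against 144.2 for the chimera, 73.6 for WC, 33.2 for WCS and 81.0 for MyoD. At chr15:10869772-10870329 the chimera had 5.13, with 26.9 for WC, 27.6 for WCS, 44.1 for MyoD and 35.0 for NeuroD2. The chimera percentile there was 0.52, and those of the other lists ran from 82.5 to 91.3. WCS was the lowest at chr12:30033574-30034409, at 5.03 against 36.1 for the chimera, 31.6 for WC, 27.1 for MyoD and 19.4 for NeuroD2. For WC the widest shortfall was smaller, at chr4:132641910-132642480, at percentile 15.0 against 56.7 to 59.7 in the other lists. The values there were 6.21 for WC and 11.3 to 12.9 in the others.

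The following regions were chosen because 1 list ranked them farthest above all the others. Their lower ranks in the rest are fixed by that choice and do not describe every region that a list led. MyoD led at chr8:87521798-87522373, at percentile 87.4 against 4.54 to 26.2 in the other lists. The values there were 33.9 for MyoD, 6.37 for the chimera, 7.15 for WC, 5.43 for WCS and 5.23 for NeuroD2. MyoD also led at chr16:13818525-13818926, with 36.7 against 5.60 to 7.05 elsewhere. The chimera led at chr2:34105548-34105945, with 28.7 against 8.00 for WC, 5.16 for WCS, 6.90 for MyoD and 6.02 for NeuroD2, and at chr16:93746760-93747179, with 15.7. WC led at chr1:53880853-53881314, with 15.7, and at chr9:103383144-103383651, with 31.6. WCS led at chr7:4899178-4899796, with 20.2 against 5.45 for the chimera, 7.92 for WC, 5.95 for MyoD and 7.57 for NeuroD2, and at chr7:17366402-17366783, with 10.8. Both regions chosen in this way for NeuroD2, at chr1:181388431-181389072, with 14.1, and at chr2:31604418-31605374, with 16.7, had no base common to all 5 lists.

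Some other regions with an infinite value were of uneven strength, and some ranked high in every list. At chr8:125374456-125375094 the chimera value was 311.3 and the MyoD value infinite, whereas WC had 24.9, WCS 13.9 and NeuroD2 16.4. At chr9:62013887-62014381 MyoD was infinite and the chimera had 81.7, with 23.6 for WC, 11.5 for WCS and 22.5 for NeuroD2. By contrast, the region at chr5:124655917-124657415 lay in decile 10 of every list. It was infinite in NeuroD2 and had 131.2 in the chimera list, 171.2 in WC, 232.0 in WCS and 60.98 in MyoD.

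**Figure D5:**
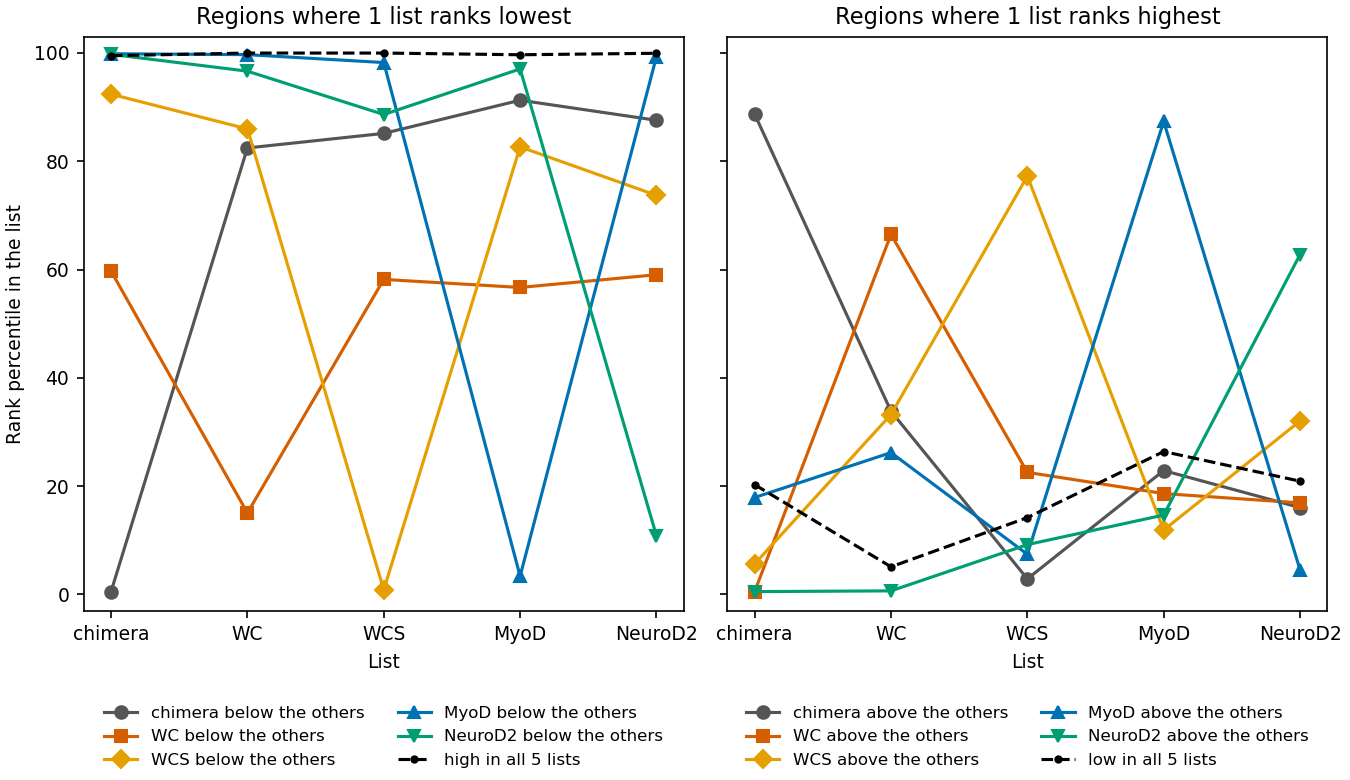
Rank percentile (vertical axis) in each list (horizontal axis) for the region in which each list stands farthest below the other 4 (left) or above them (right), with the first region of those high in all 5 lists (left, dashed) and low in all 5 (right, dashed). MyoD drops to 3.38 in a region where the other lists exceed 98.

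The sites of the 5 proteins overlapped at some base in most of these regions. At least 1 base was common to all lists in 3465 regions, 98.6% (98.1 to 98.9%), and the longest common stretch had a median of 315 bp, with quartiles of 260 and 371 bp. It reached 100 bp in 3444 regions. A single site of each list made up 3182 regions, 90.5%, and the other 333 held more than 5 sites. In total the regions covered 2.54 Mb of the 25.6 Mb of all joined regions, and 1.16 Mb was common to all 5 lists. Their median width was 635 bp, with quartiles of 510 and 834 bp, against 368 bp for all joined regions, which joining 5 sites makes larger by construction.

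Centres of the highest sites lay close together, closest for the mutants. The outermost of the 5 centres were a median of 96.5 bp apart, and 1825 regions, 51.9%, had all 5 within 100 bp. By pairs, the median distance was 20.5 bp for WC and WCS, 31.5 bp for WCS and NeuroD2, 32.5 bp for WC and NeuroD2 and 33.5 bp for the chimera and MyoD. It was 41.0 bp for MyoD and NeuroD2 and between 45.0 and 48.5 bp for the other 5 pairs. Close centres were not particular to the common regions. In regions that a pair shared without all 5 lists, the median was 20.5 bp for WC and WCS and 32.0 bp for WCS and NeuroD2. It was 27.5 bp there for the chimera and MyoD and 41.0 bp for MyoD and NeuroD2. Centres of WC and WCS were within 100 bp in 94.4% of regions and those of the chimera and WCS in 73.6%. Stronger regions did not have closer centres: from quintile 1 to 5 of the mean percentile, the median spread was 96.5, 89.0, 95.0, 101.5 and 99.5 bp, while the common stretch lengthened through 241, 277, 311, 344 and 405 bp. Widths and ranks are linked within the lists, with a rho of 0.37 for the chimera and between 0.61 and 0.79 for the other 4 between the rank of a site and its width.

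Joining left 50 regions without a base common to all lists, at a median width of 1118 bp and a median centre spread of 522.5 bp. Of these, 25 held more than 5 sites. The widest region, at chr4:145146454-145158645, spanned 12192 bp with 10 sites, 4 of them NeuroD2 sites, and had none. Just inside the limit, the region at chr11:114333771-114334694 had 1 base in all lists, with values of 19.9 for the chimera, 24.0 for WC, 19.8 for WCS, 18.3 for MyoD and 20.95 for NeuroD2. At chr1:134097086-134097794 the common stretch was 2 bp and at chr6:145494012-145494880 it was 16 bp. Just outside the limit, the region at chr11:117387853-117388284 was held by WC, WCS, MyoD and NeuroD2, with values of 13.1, 9.08, 5.69 and 7.86, and a chimera site of value 6.99 began 12 bases past its end. A chimera site of 15.2 began 29 bases past the region at chr5:111659965-111660628, and a MyoD site of 11.0 ended 30 bases before that at chr2:152562528-152562945. The narrowest member, at chr19:37649370-37649631, was 262 bp wide and had 173 bp in all lists.

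MyoD and the chimera were the lists most often missing from regions that the other 4 held. Of the 6114 regions held by the chimera, WC, WCS and NeuroD2, 57.5% (56.2 to 58.7%) were also in the MyoD list, and 2599 were not. Of the 4660 held by WC, WCS, MyoD and NeuroD2, 75.4% (74.2 to 76.7%) were in the chimera list, the shortest of the 5. The share was 87.4% (86.3 to 88.4%) for NeuroD2 among regions of the other 4, 91.97% (91.1 to 92.8%) for WCS and 96.9% (96.3 to 97.5%) for WC, which lacked only 112.

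The regions that missed 1 list had their own profile of ranks. The common regions had a median percentile of 81.1 in WC, 77.9 in WCS and 75.04 in NeuroD2, and those without MyoD were slightly higher there, at 82.6, 78.3 and 77.95. In the chimera list the median was 74.1 for the common regions and 47.8 for those without MyoD. Those without NeuroD2 had medians of 69.6 in MyoD and 60.5 in the chimera list, but 46.7 in WC and 41.3 in WCS. Those without WCS were similar, at 69.8 in MyoD, 62.4 in the chimera, 43.4 in WC and 32.8 in NeuroD2. In those without the chimera the medians were 46.3 in MyoD, 56.6 in WC, 57.2 in WCS and 61.1 in NeuroD2, all below the common regions. A site of the missing list lay within 1 kb of 239 of the 2599 regions without MyoD, 9.20%, and of 74 of the 1145 without the chimera, 6.46%.

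The common regions lay nearer to each other than other regions lay to them. Another common region was within 10 kb of 556 of them, 15.8% (14.6 to 17.1%), against 12.6% (11.7 to 13.6%) of the 4670 regions held by 4 lists, 8.17% (7.87 to 8.48%) of the 30948 autosomal regions held by 1 list and 8.99% (8.75 to 9.23%) of all 55842 other autosomal regions. The median distance to the nearest common region was 76.8 kb for common regions and 140.4 kb for other autosomal regions. Sites of all lists cluster along the genome, and this was not tested against such clustering. Of windows of 100 kb with a common region, 2140 held 1, 423 held 2 and 109 held 3.

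The densest window, from 122700001 on chromosome 8, held 9 common regions among 18 joined regions, with 14 chimera, 15 WC, 13 WCS, 14 MyoD and 16 NeuroD2 sites. The next window, from 122800001, held 6 among 24. A window from 155500001 on chromosome 1 held 7 among 17, and windows from 87900001 on chromosome 11 and from 93000001 on chromosome 2 held 6 each. The window on chromosome 1 held 9 chimera, 13 WC, 11 WCS, 11 MyoD and 14 NeuroD2 sites, and that from 122800001 on chromosome 8 held 13, 19, 18, 11 and 17 in the same order.

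By chromosome, the share of joined regions that were common to all 5 lists was highest on chromosome 17, 194 of 2707 or 7.17% (6.22 to 8.20%), and lowest among the autosomes on chromosome 14, 89 of 2084 or 4.27% (3.44 to 5.23%). The largest number, 344, lay on chromosome 2. Chromosome X had 0 of 779, which the rule fixes, since the MyoD and chimera lists have no sites there.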

How the data were processed

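ChIP-seq was done in 12 libraries in 6 groups, and 5 lists of sites, 1 for each transduced group, were analysed. The submitters' processing notes name CASAVA 1.8.2, BWA 0.7.5 and the build mm9. The peak caller and any pooling of libraries were not given in the sources used here. The authors' deposited value per site was taken to be −log10 of a p-value, judging by its range, since no header names it, and was used as an average rank within its list, infinite values tied. Sites were joined at 1 shared base, and the highest value of a list stood for it in a region (ties: wider, then lower start). Coordinates are 1-based. The members, lists and naming rule were chosen with earlier results of these data known. The rule names regions by their highest lowest and lowest highest percentile, by the largest gap of 1 list to the other 4, by width, by the shortest common stretch (here among members that have one) and by windows of 100 kb and chromosomes. Regions with infinite values were chosen after their values were seen. The planned E-box and gene results were not run. Joining, common stretches and rank correlations were tested on simulated data. The software was Python 3.11.15 with pandas 2.3.3, numpy 2.4.6, matplotlib 3.10.9 and scipy 1.17.1.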

Additional observations from a re-analysis of the deposited data

How the results depend on the processing

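Settings were changed 1 at a time in 5 ways, and in 2 more chosen after seeing the data. The number of common regions was 3337 where the common stretch had to cover 50% of the shortest site, 3500 with only autosomes and a common range of site widths, and 3035 without 287 windows of 100 kb that were dense in sites. It was 1825 with centres within 100 bases, 1463 with the upper 50% of each list by value and 1894 with lists of equal length, each of which removes sites or regions by construction. The shares of the chimera, WC, WCS, MyoD and NeuroD2 sites in common regions became 23.4%, 12.6%, 15.2%, 13.7% and 10.9% with the 50% stretch, 12.7%, 6.78%, 8.16%, 7.37% and 5.83% with centres within 100 bases, and 20.6%, 11.1%, 13.4%, 12.03% and 9.54% with the top 50%. With equal length they were 13.5% for the chimera, 13.6% for WCS, 13.5% for MyoD and 13.5% for NeuroD2. Median percentiles moved beyond their interval to 71.97 for the chimera and 74.1 for MyoD with centres within 100 bases, to 76.8 for WCS and 72.99 for NeuroD2 with the top 50%, and to 82.1 for the chimera, 77.7 for WC, 72.5 for MyoD and 68.1 for NeuroD2 with equal length. With equal length the chimera had the highest of these medians, and in the full lists WC did. The cut took sites of low value from every list but the chimera's, the shortest. The order of the medians therefore depends on list length and is not a trait of a protein. The share of regions with a base in all 5 lists was 100% under both stricter overlaps, by construction, and 99.2% with the top 50%. The mean rho over the 10 pairs was 0.40, and became 0.36 with the top 50% and 0.36 with region width held constant. No paired analysis was possible because each group has 1 list, and for the same reason no replicate could be left out. The lowest value of each list lay between 5.002 for MyoD and 5.038 for WC, so sites of lower value are absent from the lists. Depth is unknown, and the untransduced libraries were not analysed here. Neither limits on detection in reads nor a background level can therefore be given.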
